A study of Homo sapiens with 12 samples.

Results

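The genes described here encode the proteins of the mitochondrial ribosome. They were chosen by symbol alone, as the rows of both count tables named MRPL or MRPS followed by a number and, for some, a letter from A to C. The rule found 78 genes of the 36762 in the tables, 49 with large-subunit symbols (MRPL) and 29 with small-subunit symbols (MRPS). The study dealt with TET1, an enzyme that oxidises 5-methylcytosine in DNA, and with the choice of germ cell fate from human embryonic stem cells (hESC). Bulk RNA-seq was made of UCLA1, an established hESC line, as undifferentiated cells and as iMeLC, the incipient mesoderm-like cells from which primordial germ cell-like cells are induced. At each stage there were 3 control (CTRL) libraries, from the lines CTRL1101, CTRL1106 and CTRL1109, and 3 TET1 catalytic domain knockout (CDKO) libraries, from the lines CDKO1102, CDKO1105 and CDKO1312. All 12 libraries thus share the UCLA1 background, and the hESC columns are numbered 1 to 3 in each genotype without naming the line. Because nothing else is said of how the cultures were separated, p-values measure the spread between these libraries.

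The mitochondrial ribosome translates the few proteins that mitochondrial DNA encodes, which are parts of the respiratory chain and of ATP synthase. Its ribosomal RNAs come from mitochondrial DNA, whereas its proteins are encoded in the nucleus, made in the cytoplasm and imported. Some of these proteins descend from bacterial ribosomal proteins, and others were added in the course of mitochondrial evolution. Human embryonic stem cells are known for their reliance on glycolysis, and their mitochondria change as they differentiate.

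Total counts were 12517593 to 18855099 in the hESC libraries and 52121702 to 109479071 in the iMeLC libraries. Stage therefore coincides with depth and with the table that holds the counts, and these cannot be told apart. TET1 itself was listed at 290 to 396 CPM (counts scaled to library size) in hESC and 288 to 356 CPM in iMeLC, with no difference between genotypes past the threshold, and a count over the whole gene does not test the removal of a catalytic domain. The hESC markers summed to 7627 to 8788 CPM in hESC and 4453 to 5884 CPM in iMeLC, and 6 of 7 in CTRL and 5 of 7 in CDKO fell with stage. Primitive streak markers (EOMES, TBXT, MIXL1 and others) rose, 6 of 7 in each genotype, to 337 to 1232 CPM, with MESP1 not passing the test. The iMeLC library of line CTRL1106 stood apart in these markers, with TBXT at 11.6 CPM against 51.5 and 112 CPM in the other CTRL iMeLC libraries. EOMES was at 16.4 CPM there, against 95.2 and 148 CPM. Without that library, 50 members were called higher and 8 lower with stage in CTRL. Over all genes it was the CTRL1101 iMeLC library that differed most from the other controls. Its chi-square per gene was 155 against CTRL1106 and 181 against CTRL1109, where CTRL1106 against CTRL1109 had 97.1. Definitive endoderm markers summed to 22.8 to 82.2 CPM in CTRL hESC and 44.6 to 507 CPM in CDKO hESC, and to 49.5 to 479 CPM in CTRL iMeLC and 718 to 1573 CPM in CDKO iMeLC. Fibroblast or feeder markers summed to 381 to 600 CPM in hESC and 518 to 1090 CPM in iMeLC. In each genotype 6 of 8 rose with stage and 1, THY1, fell. THY1 made up much of the hESC sums, with a mean of 279 CPM in CTRL hESC and 344 CPM in CDKO hESC. Its means were 140 and 145 CPM in CTRL and CDKO iMeLC. The part of endoderm, fibroblast or feeder cells in the results below was not tested. Neural markers stayed at 1.40 to 6.92 CPM and extraembryonic markers at 3.88 to 22.5 CPM.

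All levels below are CPM on 1 scale over the 12 libraries, adjusted by the trimmed mean of M-values (TMM). The large-subunit genes summed to 1676 ± 101 CPM in CTRL hESC, 1693 ± 50.8 in CDKO hESC, 2533 ± 116 in CTRL iMeLC and 2674 ± 37.4 in CDKO iMeLC (SD, n = 3 each). The small-subunit genes summed to 1393 ± 93.1, 1423 ± 37.8, 2003 ± 123 and 2079.8 ± 29.4 CPM in the same order. Both sums were thus higher in every iMeLC library than in every hESC library, and in hESC the CTRL and CDKO means differed by less than the SD of either group. In iMeLC the CDKO mean of the large subunit was higher than the CTRL mean by more than the SD of either group, and that of the small subunit by less than the SD of the CTRL libraries. As a share of all raw counts, the members took 0.330% to 0.360% of each hESC library and 0.407% to 0.422% of each iMeLC library. In bulk RNA, fewer cells of a type and less RNA per cell cannot be told apart.

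Per kilobase of exon, MRPS34, a small-subunit protein found only in mitochondria, had the highest level of all members, at 292 and 320 CPM per kb in CTRL and CDKO hESC and 199 and 193 in CTRL and CDKO iMeLC. MRPS26 followed with a mean of 93.2 CPM per kb over the 4 groups, then MRPL51 with 62.5, MRPS9 with 48.8, MRPL9 with 44.9 and MRPL18 with 41.2. The mean pools stages that differ, most of all for MRPS9, which was at 14.2 and 10.8 CPM per kb in CTRL and CDKO hESC and at 85.2 in both iMeLC groups. At the low end stood MRPL53 with 0.0892 CPM per kb, MRPS24 with 0.402, MRPS17 with 1.47, MRPL46 with 1.97, MRPL38 with 2.10 and MRPS28 with 2.37. Exon length here joins the exons of all annotated transcripts. For MRPL46 it is 6432 bases, against 1019 in its longest coding transcript, so its low place depends on the length used. The counts of MRPL53 and MRPS24 are uncertain. Of the exon bases of MRPL53, 45.2% are shared with CCDC142 on the same strand. Of those of MRPS24, 23.2% are shared with the readthrough gene URGCP-MRPS24, which was itself at 0 CPM in every library. The part of these overlaps in the low levels was not tested. MRPL53 had 0 to 11 counts per library and did not pass the filter on low counts, so 77 members were tested in each comparison.

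Between hESC and iMeLC, most genes of the mitochondrial ribosome rose. In the CTRL lines 52 of 77 tested members were called higher and 7 lower (edgeR's quasi-likelihood test, Benjamini-Hochberg adjusted p under 0.05), where 29.5% of all 20262 tested genes were called higher and 19.9% lower. In the CDKO lines 55 were higher and 7 lower, beside 32.1% and 27.7% of all genes. The median log2 fold change of the members was 0.59 in CTRL and 0.74 in CDKO, against -0.01 and -0.08 over all genes. Protein-coding genes alone stood nearer to the members. Of 15478 tested, 5691 were called higher and 2986 lower in CTRL, and 6236 and 3671 in CDKO, with medians of 0.15 and 0.16. Among large-subunit genes 34 rose and 5 fell in CTRL, and 35 rose and 6 fell in CDKO. Among small-subunit genes 18 rose and 2 fell in CTRL, and 20 rose and 1 fell in CDKO. With a change of at least 1.5-fold also required, 39 members were higher and 3 lower in CTRL, beside 22.8% and 14.9% of all genes, and 41 and 5 in CDKO, beside 25.6% and 23.1%. Each genotype's comparison uses its own 6 libraries for the difference, though the spread was estimated over all 12; 52 members were called higher in both and 5 lower in both.

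How the libraries are scaled moves these counts. TMM factors were 1.107 to 1.157 in hESC and 0.847 to 0.946 in iMeLC. With library totals alone, the median of all genes became -0.31 in CTRL and -0.46 in CDKO, and the members split into 41 higher and 17 lower in CTRL (70.7% of calls higher, against 88.1% with TMM) and 41 higher and 19 lower in CDKO (68.3% against 88.7%). All 41 higher calls in each genotype were among the higher calls with TMM, and the 7 lower calls with TMM were called lower too. Relative to the median of all genes, the members' median was then 0.61 in CTRL and 0.82 in CDKO.

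**Figure D1:**
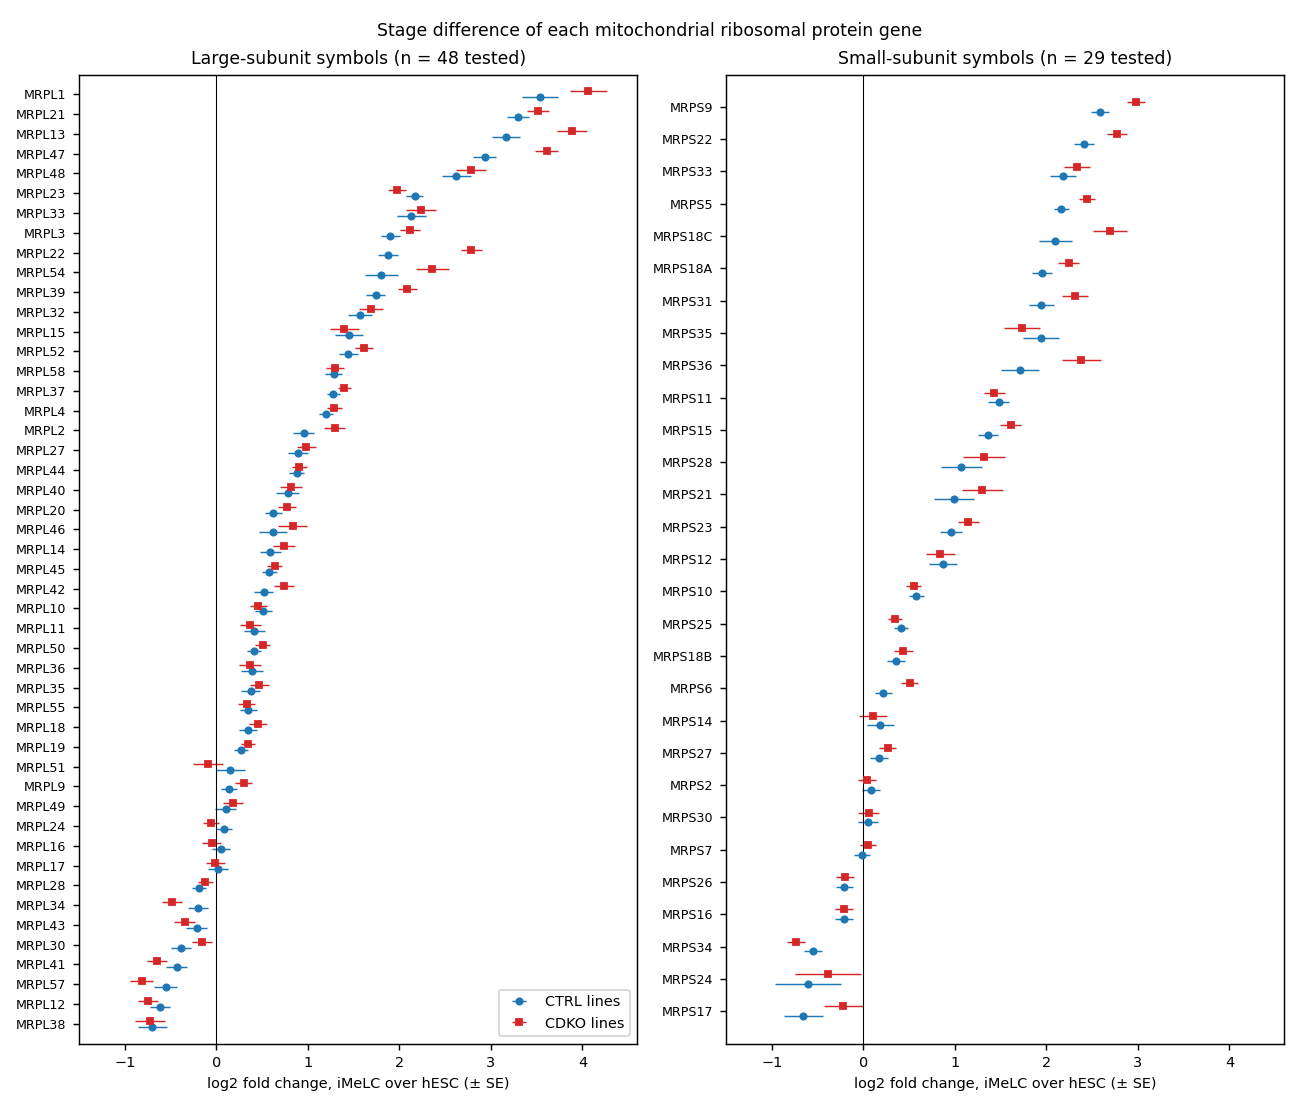
Log2 fold change of iMeLC over hESC (x axis, ± SE) for each tested member (y axis), with large-subunit symbols on the left (n = 48) and small-subunit symbols on the right (n = 29). Blue circles are the CTRL lines and red squares the CDKO lines (3 libraries a group). Values run from -0.81 to 4.06, and most lie to the right of 0 in both genotypes.

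The largest rise was that of MRPL1 (chr4:77862520-77952790, GRCh38), the protein of the L1 stalk at which spent tRNA leaves the ribosome. Its level was 2.25, 2.02 and 1.88 CPM in CTRL hESC, 1.88, 2.04 and 1.90 CPM in CDKO hESC, 30.8, 20.3 and 20.1 CPM in CTRL iMeLC and 36.8, 32.7 and 28.2 CPM in CDKO iMeLC. The stages did not overlap in either genotype, and among the CTRL iMeLC libraries that of line CTRL1101 stood above the other two. The log2 fold change was 3.53 ± 0.20 (SE) in CTRL (adjusted p = 1.31e-08) and 4.06 ± 0.20 in CDKO (adjusted p = 3.05e-09).

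MRPL21, a large-subunit protein of the bacterial family (chr11:68891276-68903835), was at 8.41, 7.12 and 7.29 CPM in CTRL hESC, 6.36, 7.78 and 6.40 in CDKO hESC, 83.6, 70.1 and 70.4 in CTRL iMeLC and 77.8, 79.1 and 78.3 in CDKO iMeLC. Every iMeLC library was far above every hESC library, with log2 fold changes of 3.30 ± 0.12 in CTRL and 3.51 ± 0.12 in CDKO. MRPL47 (chr3:179588285-179604654), the mitochondrial relative of the bacterial protein L29 near the exit of the peptide tunnel, rose from 4.51, 5.26 and 5.23 CPM to 37.4, 42.7 and 34.4 CPM in CTRL and from 3.90, 4.09 and 4.05 CPM to 52.9, 49.9 and 44.6 CPM in CDKO. Its log2 fold changes were 2.93 ± 0.12 and 3.61 ± 0.13. MRPL13, another protein of the bacterial family, went from 3.35 to 3.90 CPM up to 31.0 to 33.6 CPM in CTRL, and from 1.90 to 3.26 CPM up to 36.3 to 41.0 CPM in CDKO. For MRPL47 a gene on the opposite strand (ACTL6A) shares 9.05% of the exon bases, and for MRPL13 one (MTBP) shares 0.0713%. Their counts are uncertain to that extent, because no source used here says whether reads were counted by strand.

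In the stalk that recruits translation factors, the members moved in different directions. MRPL12, which forms the flexible arms of the stalk (chr17:81703357-81707526), was at 15.7, 16.6 and 14.6 CPM in CTRL hESC, 19.4, 18.3 and 18.8 in CDKO hESC, 11.0, 10.4 and 9.26 in CTRL iMeLC and 11.3, 10.9 and 11.5 in CDKO iMeLC. It fell by 0.61 ± 0.11 on the log2 scale in CTRL (adjusted p = 0.000439) and by 0.75 ± 0.11 in CDKO (adjusted p = 6.76e-05), with no overlap between stages, though 68.2% of its exon bases are shared with AC139530.2 on its own strand, which had -0.57 in CTRL (adjusted p = 0.047), so the count of MRPL12 is uncertain. MRPL10, which carries MRPL12, rose by 0.51 ± 0.09 in CTRL and 0.46 ± 0.09 in CDKO, and MRPL11, at the base of the stalk, by 0.42 ± 0.12 and 0.37 ± 0.12. The rise of MRPL11 is sensitive to scaling: with library totals alone its log2 fold change was 0.12 in CTRL (adjusted p = 0.34) and -0.01 in CDKO (adjusted p = 0.92), and that of MRPL10 in CDKO was 0.07 (adjusted p = 0.47).

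The other large-subunit genes that fell by the named-gene rule were MRPL38, MRPL57 and MRPL41, all 3 of them proteins found only in mitochondria. MRPL38 (chr17:75898643-75905413) was at 9.51, 9.45 and 8.53 CPM in CTRL hESC and 5.15, 5.87 and 5.91 CPM in CTRL iMeLC, and at 8.74, 10.6 and 10.5 CPM in CDKO hESC and 6.77, 6.40 and 4.96 CPM in CDKO iMeLC. The stages did not overlap, and the log2 fold changes were -0.70 ± 0.16 and -0.72 ± 0.16. MRPL38 shares exon bases with AC087289.3 on its own strand, and MRPL57 has 5 named pseudogenes, so both counts are uncertain. MRPL57 had log2 fold changes of -0.55 ± 0.13 and -0.81 ± 0.13, and MRPL41 of -0.43 ± 0.11 and -0.65 ± 0.11.

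MRPL58, a peptidyl-tRNA hydrolase that frees stalled ribosomes and is also built into the large subunit, rose from 16.7, 18.7 and 16.9 CPM to 44.1, 40.2 and 43.1 CPM in CTRL and from 18.1, 17.5 and 18.4 CPM to 43.8, 48.5 and 40.5 CPM in CDKO. MRPL45, which lies where the ribosome meets the inner membrane, rose by less, with log2 fold changes of 0.58 ± 0.08 and 0.64 ± 0.08, beside 1.28 ± 0.10 and 1.30 ± 0.10 for MRPL58.

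Of the small-subunit genes, MRPS9 had the largest rise. MRPS9, of the bacterial family (chr2:105037983-105099960), was at 27.5, 28.5 and 25.6 CPM in CTRL hESC, 18.0, 22.7 and 21.2 in CDKO hESC, 177, 159.9 and 153 in CTRL iMeLC and 166, 163 and 160.4 in CDKO iMeLC. Stages did not overlap, and the log2 fold changes were 2.58 ± 0.10 (adjusted p = 8.73e-10) and 2.98 ± 0.10 (adjusted p = 1.94e-10). MRPS22, a mitochondria-specific protein in which inherited defects are known, rose from 13.3 to 13.4 CPM up to 67.4 to 75.8 CPM in CTRL and from 8.88 to 11.9 CPM up to 70.6 to 74.5 CPM in CDKO. MRPS5, of the bacterial family near the mRNA entrance, rose by 2.16 ± 0.08 and 2.44 ± 0.09, and MRPS33 by 2.18 ± 0.14 and 2.33 ± 0.14. MRPS12, a protein of the decoding centre, rose by 0.87 ± 0.16 and 0.84 ± 0.16. The annotated span of MRPS22 runs over other genes (COPB2 among them), so its count is uncertain.

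MRPS34, the member with the highest level per kilobase, fell. It was at 309, 343 and 308 CPM in CTRL hESC and 251, 205 and 198 CPM in CTRL iMeLC, and at 356, 341 and 356 CPM in CDKO hESC and 193, 224 and 217 CPM in CDKO iMeLC. The fall was 0.55 on the log2 scale in CTRL (log2 fold change -0.55 ± 0.10) and larger in value in CDKO (-0.73 ± 0.10), though the difference of the 2 changes did not pass the test (interaction adjusted p = 0.65). MRPS17 was called lower in CTRL (-0.65 ± 0.22, adjusted p = 0.023) and had -0.22 ± 0.22 in CDKO (adjusted p = 0.40), but it held only 2.12 to 4.50 CPM, shares exon bases with NIPSNAP2, and lost its call in CTRL without CTRL hESC library 2 (adjusted p = 0.14) or 3 (adjusted p = 0.055).

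The 3 paralogs of the bacterial protein S18 rose by different amounts. MRPS18C, which takes the place of S18 in the small subunit, went from 5.69 to 8.19 CPM up to 27.9 to 31.3 CPM in CTRL (log2 fold change 2.10 ± 0.18) and from 4.91 to 7.25 CPM up to 34.5 to 50.9 CPM in CDKO (2.69 ± 0.19). MRPS18A, which is built into the large subunit despite its symbol, rose by 1.95 ± 0.11 and 2.24 ± 0.12. A gene on the opposite strand shares 40.2% of the exon bases of MRPS18C (ABRAXAS1) and 47.0% of those of MRPS18A (RSPH9), so both counts are uncertain. MRPS18B rose by 0.35 ± 0.10 and 0.44 ± 0.10, and with library totals alone it had 0.06 in CTRL (adjusted p = 0.59) and 0.05 in CDKO (adjusted p = 0.62). MRPS30, the other S-named protein of the large subunit, had log2 fold changes of 0.05 ± 0.11 and 0.06 ± 0.11 with overlapping stages and did not pass the test in either genotype, while library totals alone gave -0.24 (adjusted p = 0.052) and -0.33 (adjusted p = 0.010). MRPS36, now known as a subunit of the 2-oxoglutarate dehydrogenase complex rather than of the ribosome, rose by 1.71 ± 0.21 and 2.38 ± 0.22.

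The remaining members divided as follows, with genes outside the naming rule chosen after their values were seen. Called in 1 genotype only were MRPL30, lower in CTRL (-0.38 ± 0.11, and -0.16 ± 0.11 in CDKO), MRPL34 and MRPL43, lower in CDKO (-0.48 ± 0.11 and -0.34 ± 0.12, and -0.20 ± 0.11 and -0.21 ± 0.12 in CTRL), and MRPL9, MRPS6 and MRPS27, higher in CDKO (0.30 ± 0.09, 0.51 ± 0.09 and 0.27 ± 0.10, and 0.14 ± 0.09, 0.22 ± 0.09 and 0.17 ± 0.09 in CTRL). MRPS17 is the other such member, and the interaction did not pass the test for any of them. Neither genotype called 13 members: MRPL16, MRPL17, MRPL24, MRPL28, MRPL49, MRPL51, MRPS2, MRPS7, MRPS14, MRPS16, MRPS24, MRPS26 and MRPS30. MRPS26 and MRPL51, next to MRPS34 in level per kilobase, are thus among those with no call, at -0.21 ± 0.10 and 0.16 ± 0.16 in CTRL. The smallest called rise in CTRL was that of MRPL19, at 0.27 on the log2 scale.

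Placing members by structure rather than by symbol, with MRPS30 and MRPS18A in the large subunit and MRPS36 in neither, gave 35 large-subunit genes higher and 5 lower of 50 tested in CTRL and 36 and 6 in CDKO. The 26 small-subunit genes then had 16 higher and 2 lower in CTRL and 18 and 1 in CDKO. Members of the bacterial family numbered 47, with 32 higher and 3 lower in CTRL and 34 and 2 in CDKO. Of 28 tested mitochondria-specific members, 18 were higher and 4 lower in CTRL and 19 and 5 in CDKO. The medians of the families were close, at 0.59 and 0.60 in CTRL and 0.74 and 0.78 in CDKO, and most members of each family were called higher. This placement was drawn up after the data were seen.

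**Figure D2:**
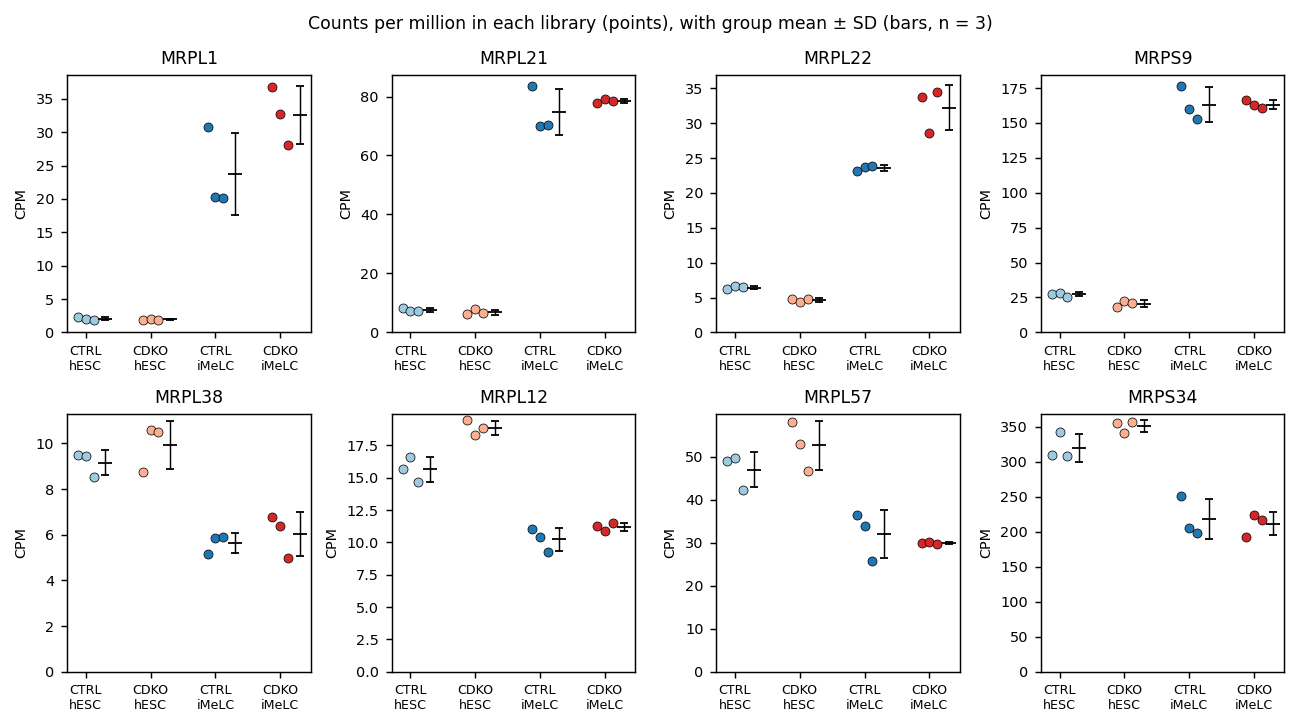
CPM (y axis, linear from 0) of 8 members in each library (points) with the group mean ± SD (black bars, n = 3), for CTRL and CDKO hESC and CTRL and CDKO iMeLC (x axis). MRPL1, MRPL21, MRPL22 and MRPS9 are higher in every iMeLC library than in every hESC library, and MRPL38, MRPL12, MRPL57 and MRPS34 are lower.

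The size of the stage difference ran with the length of the gene on the genome. Over the 77 members, Spearman's rho between log2 fold change and gene length was 0.603 in CTRL and 0.607 in CDKO, against 0.204 and 0.194 over 15478 protein-coding genes. Members under 5 kb (n = 20) had a median log2 fold change of 0.00 in CTRL and -0.07 in CDKO, and members over 20 kb (n = 22) had 1.89 and 2.03. Protein-coding genes in the same 2 classes had medians of -0.30 and 0.30 in CTRL and -0.42 and 0.34 in CDKO. Of members under 5 kb, 5 of 20 were called lower in CTRL and 4 in CDKO, beside 469 and 589 of 1441 protein-coding genes of that length. Of members over 20 kb, 0 of 22 were called lower in either genotype, beside 1572 and 1929 of 9915 protein-coding genes. The classes between held 2 lower calls in CTRL and 3 in CDKO. GC content ran the other way, with rho of -0.375 in CTRL and -0.413 in CDKO over members and -0.273 and -0.293 over 15427 protein-coding genes. These points share libraries and depth, and the part of gene length and GC content in the stage result was not tested. Exons of 41 members share bases with another gene, in 29 of them with a gene on the opposite strand, and 34 members have a named pseudogene, so their counts are uncertain. Of the 37 members with no such overlap, 29 were higher and 3 lower in each genotype. Of the 40 tested members with an overlap, 23 were higher and 4 lower in CTRL and 26 and 4 in CDKO.

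**Figure D3:**
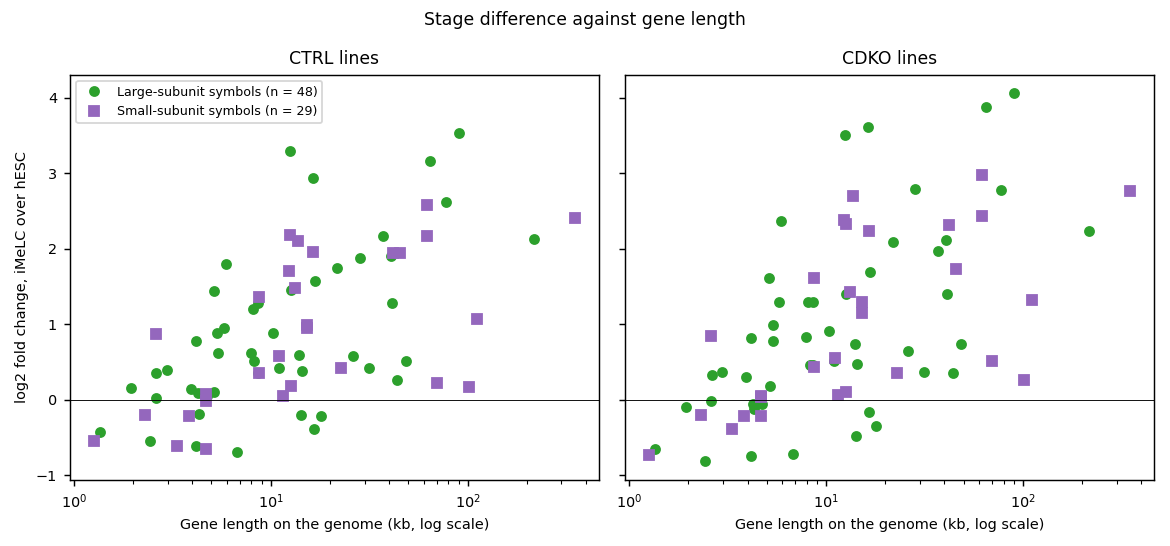
Log2 fold change of iMeLC over hESC (y axis) against gene length on the genome in kb (x axis, log scale) for the 77 tested members, in CTRL lines (left) and CDKO lines (right), with green circles for large-subunit and purple squares for small-subunit symbols. Members over 20 kb lie above 0 in both panels, and those near or below 0 are mostly short.

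Since so many members moved together, their promoters were searched for 3 motifs known from nuclear genes of mitochondrial proteins. RefSeq promoter windows (GRCh38.p14, from 250 bases before to 50 after the start) were found for 69 of 78 members. The letters searched, on both strands, were GCATGCGC for NRF1, CCGGAAGT for the ETS family that includes GABPA, and AAGATGGCG for YY1. NRF1 letters stood in 6 of 69 members (8.70%, against 3.68% of 27305 genes with a window), ETS letters in 12 (17.4% against 4.95%) and YY1 letters in 13 (18.8% against 2.14%). Any of the 3 stood in 25 members (36.2% against 9.95%). Of the 43 members with a window that rose in both genotypes 17 held at least 1 motif, as did 2 of the 5 that fell in both and 6 of the other 21. A match is a description of letters and not of binding.

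The stretches below show, for each motif, the member with the largest mean rise that holds it before its start (among members with a single window), then the member with the largest mean fall that holds one, and last MRPL1, whose window holds none of the 3. These members were chosen after their values were seen. Capitals mark the motif or its reverse complement, each stretch is 60 bases read 5′ to 3′ on the gene's strand, and positions are in GRCh38.p14. Every start named here is the RefSeq start, which can differ from the start of the GENCODE gene span given above. The stretches of MRPL1 and MRPL38 lie before their RefSeq starts but inside their GENCODE spans. The bases before the GENCODE starts of both genes were therefore not searched.
MRPS18C, NRF1 letters, chr4:83455896-83455955, plus strand: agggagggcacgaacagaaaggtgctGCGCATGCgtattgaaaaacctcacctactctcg
MRPL3, ETS letters, chr3:131502972-131503031, minus strand: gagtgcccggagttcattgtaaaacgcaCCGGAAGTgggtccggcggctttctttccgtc
MRPL32, YY1 letters, chr7:42932127-42932186, plus strand: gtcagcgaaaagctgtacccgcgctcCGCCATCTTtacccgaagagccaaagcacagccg
MRPL38, ETS letters, chr17:75905060-75905119, minus strand: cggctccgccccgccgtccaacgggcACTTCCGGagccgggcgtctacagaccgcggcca
MRPL1, no motif, the last 60 bases before its start, chr4:77862770-77862829, plus strand: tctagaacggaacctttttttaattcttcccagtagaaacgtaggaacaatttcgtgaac
The ETS letters of MRPL3, a protein near the catalytic centre that rose by 1.90 ± 0.10 in CTRL and 2.12 ± 0.11 in CDKO, end 24 bases before the RefSeq start. Those of MRPL38, which fell, end 201 bases before it.

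Other genes of mitochondrial translation also rose with stage in part. Beside them, 29.5% of all tested genes were called higher and 19.9% lower in CTRL, and 32.1% and 27.7% in CDKO. Of 5 ribosomal subunits without an MRP symbol, 3 rose and 1 fell in each genotype: DAP3, a GTP-binding protein of the small subunit, rose by 1.97 ± 0.11 in CTRL and 2.45 ± 0.11 in CDKO, PTCD3 and GADD45GIP1 rose too, and AURKAIP1 fell by 0.30 ± 0.10 and 0.57 ± 0.10. Of 14 translation factors 12 rose in CTRL with none lower, and 12 rose and 1 fell in CDKO. Among them the elongation factor GFM1 rose by 1.72 ± 0.10 and 2.02 ± 0.10, the initiation factor MTIF2 by 1.34 ± 0.09 and 1.65 ± 0.09, and SLIRP, which with LRPPRC binds mitochondrial mRNAs, by 4.68 ± 0.22 and 5.04 ± 0.23. TUFM, the elongation factor that brings in tRNA, had -0.22 ± 0.11 in CTRL (adjusted p = 0.11) and fell by 0.50 ± 0.11 in CDKO (adjusted p = 0.0015).

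Of 20 genes that charge mitochondrial tRNAs, 11 rose and 2 fell in CTRL and 12 rose and 2 fell in CDKO, with RARS2 at 1.81 ± 0.09 and 2.19 ± 0.09 among the risers and PARS2 at -0.54 ± 0.14 and -0.51 ± 0.14 among those that fell. Of 23 assembly factors, 7 rose and 4 fell in CTRL and 7 rose and 3 fell in CDKO. Their medians of 0.10 and 0.12 were nearer to the all-gene medians than those of the members, and below the protein-coding medians of 0.15 and 0.16. Of 13 regulators of mitochondrial transcription and biogenesis, 4 rose and 2 fell in CTRL and 5 rose and 1 fell in CDKO. The share of higher calls was near that of all genes for assembly factors in both genotypes and for regulators in CTRL. The transcription factor NRF1 rose by 1.29 ± 0.11 and 1.36 ± 0.11 and GABPB1, the partner of GABPA, by 0.86 ± 0.10 and 1.21 ± 0.10, while TFAM, which packs mitochondrial DNA, had 0.02 ± 0.12 and 0.21 ± 0.12 (adjusted p = 0.89 and 0.15). YY1, whose letters were searched too, went the other way in mean level. It was at 275 CPM in CTRL hESC and 234 in CTRL iMeLC, and at 265 and 238 CPM in CDKO. Of the 13 regulators, 9 had a positive log2 fold change and 4 a negative one in CTRL, and 10 and 3 in CDKO. The mRNAs encoded by mitochondrial DNA had 3 of 13 higher in CTRL, a share below that of all genes, and 10 of 13 in CDKO. These mRNAs had none lower and medians of 0.34 and 0.51. They took 2.50% of the counts of the iMeLC library of line CTRL1101, against 3.95% and 4.04% in the other CTRL iMeLC libraries. No gene of these lists was called between genotypes at either stage or for the interaction.

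**Figure D4:**
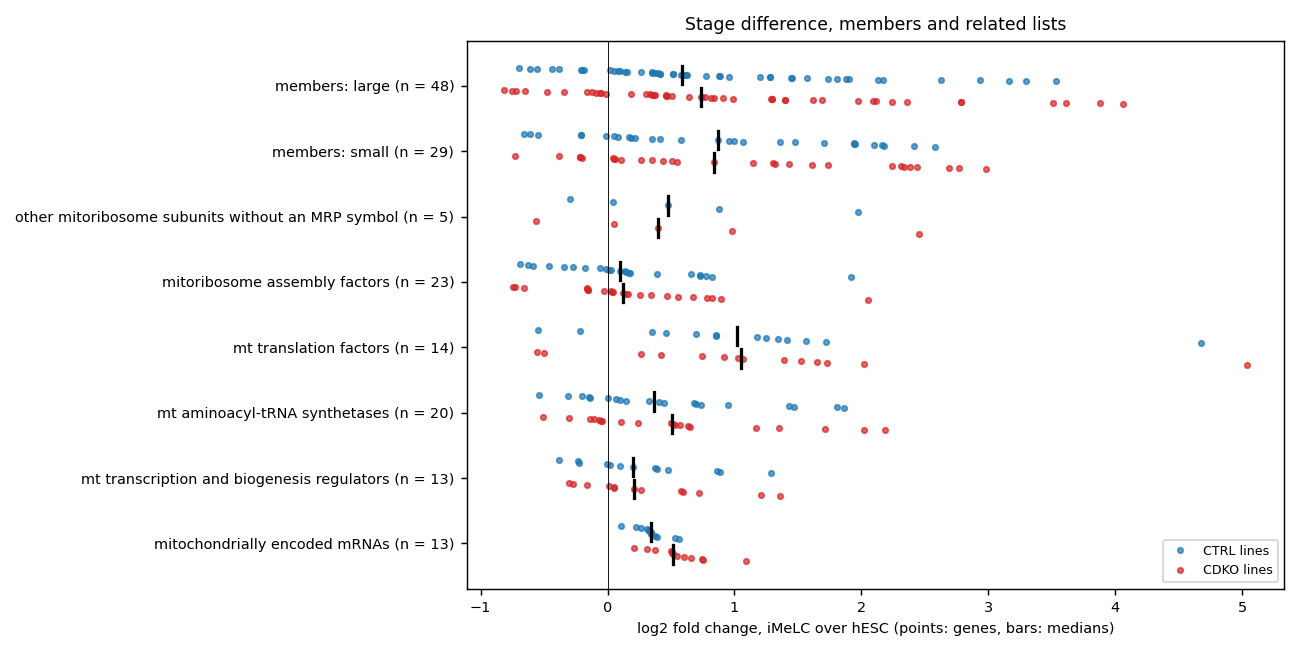
Log2 fold change of iMeLC over hESC (x axis) for the large- and small-subunit members and for 6 lists of related genes (rows, n tested in brackets), in CTRL (blue) and CDKO (red). Points are genes and black bars medians. Translation factors have a median of 1.02 in CTRL and 1.05 in CDKO, and assembly factors 0.10 and 0.12.

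Loss of the TET1 catalytic domain left no member past the threshold at either stage. In hESC, 0 of 77 were called (1.31% of 17222 genes were), with 9 at an unadjusted p under 0.05, as were 2777 of all genes, and 0 called by DESeq2. The members' median log2 fold change of CDKO over CTRL was -0.00, and their range was -0.48 to 0.31. The 3 CDKO libraries were all above the 3 CTRL libraries for 3 members and all below for 9 (10.2% and 11.8% of all genes). Log2 fold changes between genotypes come from fits of the 6 libraries of a stage.

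Markers of other fates varied between these hESC libraries. The primitive streak markers summed to 24.3 to 58.9 CPM in CTRL and 65.5 to 189 CPM in CDKO, with 1 of 6 tested called higher, and 0 of 7 endoderm markers were called. The highest endoderm levels came from 1 library, CDKO hESC 3, with SOX17 at 54.8 CPM against 4.41 and 4.52 CPM in the rest of that group, while CTRL hESC 1 had 8.52 CPM against 1.21 and 1.88 CPM in the other controls. Without CDKO hESC 3, 0 members were called between genotypes in hESC.

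The 3 members with the smallest p in hESC were MRPS9, MRPS5 and MRPL35. For MRPS9 the CTRL libraries held 25.6 to 28.5 CPM and the CDKO libraries 18.0 to 22.7 CPM (log2 fold change -0.39 ± 0.11, adjusted p = 0.13). For MRPS5 these ranges were 28.8 to 29.4 CPM and 22.0 to 25.5 CPM (-0.29 ± 0.09, adjusted p = 0.16). The libraries of the genotypes did not overlap for either. MRPL35, of the bacterial family, was the reverse, with CTRL libraries at 34.7 to 38.3 CPM below CDKO libraries at 40.3 to 46.2 CPM (0.27 ± 0.09, adjusted p = 0.17).

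In iMeLC, too, 0 of 77 members were called (0.345% of 19999 genes were), with 7 at an unadjusted p under 0.05, as were 3952 of all genes, and 1 called by DESeq2. The median was 0.05, or -0.01 with library totals alone, and the range -0.28 to 0.47. The CDKO libraries were all above the CTRL libraries for 18 members and all below for 4 (14.3% and 12.2% of all genes). MRPL22, which lines the peptide exit tunnel, had the smallest p, with 23.1, 23.7 and 23.9 CPM in the CTRL libraries against 33.7, 28.6 and 34.4 CPM in the CDKO libraries (0.42 ± 0.11, adjusted p = 0.14). It was the 1 member called by DESeq2 (0.43, adjusted p = 0.022). MRPS6, whose exons overlap those of SLC5A3, held 54.9 to 62.4 CPM in the CTRL libraries against 69.8 to 75.1 CPM in the CDKO libraries (0.28 ± 0.09, adjusted p = 0.16), and MRPS18C at 27.9 to 31.3 CPM and 34.5 to 50.9 CPM (0.47 ± 0.15, adjusted p = 0.17). The libraries of the genotypes did not overlap for any of the 3. Of the exon bases of MRPS18C, 40.2% are shared with ABRAXAS1, so its count is uncertain. Without the iMeLC library of line CTRL1101, 4 members were called higher in CDKO: MRPL1 (0.66, adjusted p = 0.026), MRPL15 (0.42, adjusted p = 0.031), MRPS6 (0.33, adjusted p = 0.046) and MRPL32 (0.32, adjusted p = 0.049). Of these, MRPL15 and MRPL32 are named after their values were seen. How many of all genes were called in that fit was not counted, so the 4 calls cannot be set against a share of all genes.

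For the interaction, that is whether the stage difference itself differed between genotypes, 0 of 77 members were called (0.0197% of 20262 genes were). At an unadjusted p under 0.05 stood 11 members, a share near that of all genes (2275 of 20262), each with a positive interaction. The signs of all genes under that p were not counted. Over all tested members the interaction was positive for 52 and negative for 25. It was positive for 8411 and negative for 7067 protein-coding genes, and for 9787 and 10475 of all genes. DESeq2 called 1 member. That one was MRPL22, which was at 6.15, 6.62 and 6.47 CPM in CTRL hESC and 4.84, 4.38 and 4.82 CPM in CDKO hESC, below the controls, and above them in iMeLC. Its interaction was 0.91 ± 0.16 on the log2 scale (adjusted p = 0.10 with edgeR, 0.0014 with DESeq2, and 0.025 with edgeR without the iMeLC library of line CTRL1101). MRPL47 (0.68 ± 0.17, adjusted p = 0.22) and MRPL13 (0.71 ± 0.22, adjusted p = 0.29) followed. Both had CDKO below CTRL in hESC (log2 fold changes of -0.31 ± 0.17 and -0.45 ± 0.24) and above it in iMeLC (0.33 ± 0.11 and 0.22 ± 0.09), without overlap between libraries at either stage.

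**Figure D5:**
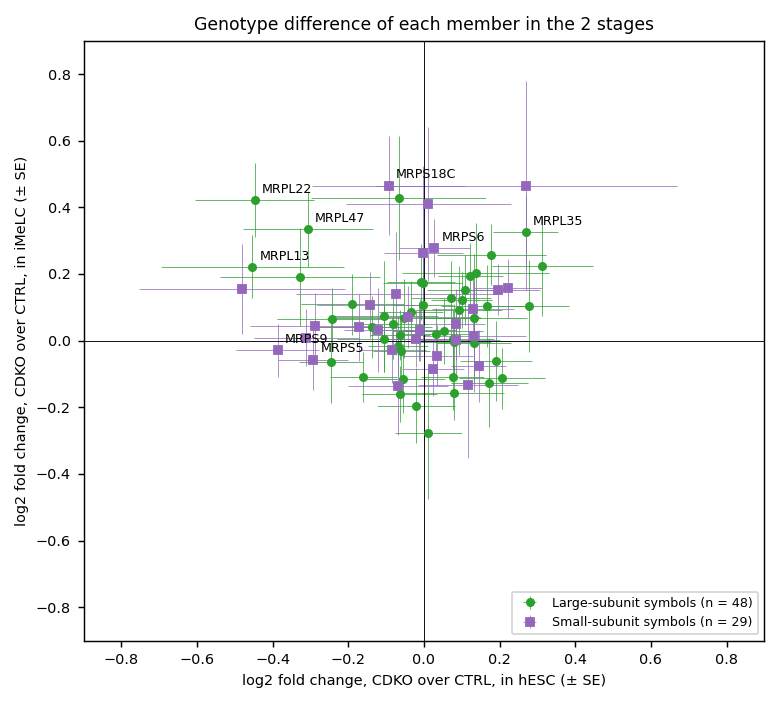
Log2 fold change of CDKO over CTRL in hESC (x axis, ± SE) against that in iMeLC (y axis, ± SE) for the 77 tested members, with green circles for large-subunit and purple squares for small-subunit symbols. Members lie within -0.48 to 0.31 in hESC and -0.28 to 0.47 in iMeLC, none called, and the 8 members with the smallest p in a genotype comparison or the interaction are named.

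The precision behind these comparisons can be read from the replicates. Among tested members the median coefficient of variation was 8.66% in CTRL hESC, 6.87% in CDKO hESC, 8.66% in CTRL iMeLC and 5.53% in CDKO iMeLC, against 14.7%, 12.1%, 19.3% and 12.1% over all genes of the 12-library fit. The middle member thus varied less between replicates than the middle gene did. No comparison with genes of like level was made, so a trait of the members is not shown. No 2 libraries held identical values.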

How the data were processed

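Libraries were made from total RNA with a stranded kit, per the labels' protocols. The authors deposited 2 tables of raw read counts per gene symbol, 1 for hESC and 1 for iMeLC. The submitters' processing notes name FastQC, cutadapt, edgeR and GRCh38, and no source used here gives the aligner, the counter, its strand setting or its annotation. Counts as deposited were tested with edgeR 4.0.16 in R 4.3.3 (filterByExpr, TMM factors, quasi-likelihood fit, Benjamini-Hochberg adjustment over all genes tested, threshold 0.05). Genotype was fitted over the 6 libraries of a stage, and stage and interaction over all 12 with 4 group means. The alternatives were DESeq2 1.42.0, other scalings and filters, thinning to the smallest library total, only members without exon overlap, and left-out libraries. Of these, library totals alone and the overlap were chosen after seeing the data. The pipeline was tested on simulated data. Positions, lengths and overlaps are from GENCODE 29 (GRCh38), matched by symbol for 78 members, and promoter sequences from RefSeq. The members and gene lists were chosen with earlier results of these data known.

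Named by rule were the 4 members of each subunit with the largest called change in each direction of a stage comparison without overlap between libraries, the 3 with the smallest p where a genotype comparison or the interaction called none, the 3 highest and 3 lowest per kb of each subunit, and 11 fixed for their roles. The mitochondrial ribosomal RNAs were not analysed here.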

Additional observations from a re-analysis of the deposited data

How the results depend on the processing

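No paired analysis was possible because the hESC columns are numbered within a genotype and name no line, so they cannot be matched to the iMeLC lines, and the 2 genotypes come from different lines.

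Between stages, the higher calls ranged over 48 to 53 in CTRL and 50 to 55 in CDKO when each library was left out in turn, and the lower calls over 5 to 9 and 6 to 9. Lower calls in CTRL were 12 with relative log expression factors, 12 with DESeq2, 17 with library totals and 3 with at least 1.5-fold, and in CDKO 19 with library totals. With only members free of exon overlap, which are fewer, calls were 29 higher and 3 lower in both genotypes. No member called in a stage comparison was called in the opposite direction under any alternative run. Between genotypes, 1 member was called lower in hESC with no filter on low counts (MRPS9, -0.41, adjusted p = 0.041). In iMeLC 1 was higher with DESeq2 and 1 in the fit over 12 libraries (MRPL22, 0.45, adjusted p = 0.027), and 0 to 4 with a library left out, the 4 without that of CTRL1101. For the interaction 1 was higher with DESeq2 and 0 to 1 with a library left out, again that of CTRL1101. Calls over all genes were not counted under these alternatives. The cause was not tested.

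Single members were followed for the 35 named ones only. Among these, stage values of 5 turned sign, and of the values that turned, those of MRPL11 and MRPL9 in CDKO had been called. For CTRL, MRPS30 had -0.039 with relative log expression factors, -0.24 with library totals, -0.039 with DESeq2, -0.043 when thinned to the smallest library total, and -0.043 to 0.13 with a library left out. MRPL51 had -0.14 with library totals and -0.18 to 0.26 with a library left out, MRPL9 -0.16 with library totals and -0.020 when thinned, and MRPS6 -0.079 with library totals. For CDKO, library totals gave MRPL11 -0.013, MRPL9 -0.085 and MRPS30 -0.33, and MRPS30 had -0.072 when thinned and -0.061 to 0.13 with a library left out. MRPL53 had too few counts to be tested.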

Other observations

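Some members start near a neighbour on the other strand. In GENCODE 29, 27 tested members have a tested protein-coding gene on the opposite strand that starts within 1000 bases on either side. How many of all protein-coding genes have such a neighbour was not counted. MRPL46 and MRPS11 are each other's neighbour and enter from both sides, in the counts and medians here too. This search was added after the data were seen, and reads of the 2 genes can be confused where they overlap. The neighbours' median stage difference (log2 fold change) was 0.01 in CTRL and 0.14 in CDKO, beside 0.41 and 0.46 for the members themselves. In CTRL 11 neighbours rose and 2 fell, and in CDKO 12 rose and 3 fell. Beside them, 5691 of 15478 tested protein-coding genes rose and 2986 fell in CTRL, and 6236 and 3671 in CDKO. Of all tested genes, 29.5% rose and 19.9% fell in CTRL, and 32.1% and 27.7% in CDKO. How often neighbouring genes in general rose together was not counted. Member and neighbour both rose for 9 of the 27 members in CTRL and 10 in CDKO, MRPL46 and MRPS11 each included.

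MRPL47 starts 36 bases from NDUFB5, a subunit gene of respiratory complex I, which rose by 1.85 ± 0.10 in CTRL and 1.75 ± 0.10 in CDKO. MRPL21 starts 7 bases from IGHMBP2, a helicase gene, which rose by 0.57 ± 0.12 and 0.61 ± 0.12, less than MRPL21 in value. The pair MRPL46 and MRPS11 lies 34 bases apart, and both rose, by 0.62 ± 0.16 and 1.48 ± 0.11 in CTRL. Other pairs moved apart. MRPL32 rose by 1.57 ± 0.13 in CTRL whereas PSMA2, a proteasome subunit gene whose start it overlaps, fell by 0.70 ± 0.15. MRPL30 was lower in CTRL (-0.38) whereas MITD1, which starts 21 bases away, rose by 2.24 ± 0.13. The differences within pairs were not tested.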
